A study of Mus musculus with 66 samples.

Results

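The miR-99, miR-100 and miR-125 families were followed in mouse plasma as 8 mature miRNAs, taken by name from a table of 1826 circulating miRNAs. They are 5 guide arms, mmu-miR-99a-5p, mmu-miR-99b-5p, mmu-miR-100-5p, mmu-miR-125a-5p and mmu-miR-125b-5p, and 3 opposite arms, mmu-miR-99a-3p, mmu-miR-99b-3p and mmu-miR-125a-3p (mmu for Mus musculus, left out from here on). All 8 were listed above 0 in each mouse and passed the filter on low counts, which left 1452 of the 1826 miRNAs.

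These miRNAs are among the oldest known in animals. MiR-125 is the vertebrate counterpart of lin-4, the first miRNA described, and restrains Lin28, an RNA-binding protein that blocks let-7 maturation. MiR-99 and miR-100 belong to the wider miR-10 family and are known to target Mtor, the kinase at the centre of growth signalling. A miRNA finds its targets mainly through its seed, bases 2 to 8 from the 5′ end, so that members of a family share targets even when they come from different chromosomes.

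The mouse genome holds these miRNAs in 3 copies of one arrangement, in which a miR-99 or miR-100 hairpin, a let-7 hairpin and a miR-125 hairpin follow each other. In the GRCm38 build with the GENCODE M21 annotation, the first copy lies on the plus strand at chr9:41531425-41582002. It holds Mir100, Mirlet7a-2 and Mir125b-1 within 50578 bases, in introns of the noncoding gene 3110039I08Rik. The second lies on the plus strand at chr16:77598936-77646343 and holds Mir99a, Mirlet7c-1 and Mir125b-2 within 47408 bases, in introns of the noncoding gene Mir99ahg. The third lies on the plus strand at chr17:17830188-17830879 and holds Mir99b, Mirlet7e and Mir125a within 692 bases. There Mir99b and Mirlet7e are in an intron and Mir125a overlaps an exon of the protein-coding gene Spaca6.

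The mature sequences are shown because the comparisons turn on how alike the members are. They are from RefSeq (GRCm38.p6), written 5′ to 3′ with the seed in capitals. The 3 guide arms of the miR-99 and miR-100 family share 1 seed.
miR-99a-5p: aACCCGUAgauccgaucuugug
miR-100-5p: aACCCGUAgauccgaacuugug
miR-99b-5p: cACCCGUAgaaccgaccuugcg
The 2 guide arms of miR-125 share another seed.
miR-125a-5p: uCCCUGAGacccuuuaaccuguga
miR-125b-5p: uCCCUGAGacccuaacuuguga
The 2 opposite arms of miR-99 share a seed of their own, and the 3 opposite arms of miR-125 each have a different one.
miR-99a-3p: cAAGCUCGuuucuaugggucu
miR-99b-3p: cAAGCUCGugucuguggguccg
miR-125a-3p: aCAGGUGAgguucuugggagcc
miR-125b-1-3p: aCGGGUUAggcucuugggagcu
miR-125b-2-3p: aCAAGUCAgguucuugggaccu

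Counted from 1 at the 5′ end, miR-99a-5p and miR-100-5p differ by the single substitution U16A, and miR-99a-5p and miR-99b-5p by A1C, U11A, U16C and U21C. How a read with 1 mismatch was shared between miR-99a-5p and miR-100-5p is not given in the sources used here. The miR-125b-5p sequence is the same in its 2 genes, Mir125b-1 on chromosome 9 and Mir125b-2 on chromosome 16, so its counts cannot be assigned to either cluster. The opposite arms miR-125b-1-3p and miR-125b-2-3p are no members but come from 1 gene each, and they are given beside miR-125b-5p for that reason. MiR-100-3p, the opposite arm of miR-100, was not analysed here.

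The study asked which circulating miRNAs accompany hepatocellular carcinoma (HCC) in mice. Plasma came from male mice of the C3H strain, an inbred strain prone to liver tumors, 8 with HCC and 5 without it (non-HCC), taken at necropsy by cardiac puncture. All 13 mice carry a label of more than 12 months after radiation, and none is labelled as unirradiated. By the study's methods the HCC mice are a mixture of animals with spontaneous and with radiation-induced tumors. The labels do not tell which mouse is which, so the HCC mice are 1 group here and the kinds of tumor cannot be compared. Ages are not labelled. Plasma of tumor-bearing F2 mice of a cross with BALB/c was also sequenced, but its 53 columns match no label, and the co-variation of the members over them was not analysed here.

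Libraries carried molecular barcodes, and counts are of unique molecular indices (UMIs). Between 9513136 and 14247488 miRNA UMIs were counted in HCC mice, against 10467560 to 13962539 in non-HCC mice. The mean of a pair of synthetic spike-ins, put into the plasma ahead of the isolation, sets the library scale. UniSP2 had 165794 to 938898 UMIs and UniSP4 only 225 to 1008, so this mean is in effect UniSP2 alone. The spike-ins took 1.17% to 7.74% of the UMIs with HCC and 2.55% to 6.29% without it, and levels on the spike-in scale spread more among HCC mice. A second scale, TMM, is computed from the miRNA counts themselves. The median log2 fold change of all miRNAs tested was 0.78 on the spike-in scale and 0.17 on the TMM scale. The libraries of HCC 2 and HCC 5, and those of HCC 3 and HCC 7, resembled each other more than any pair of non-HCC libraries did (SD of the log2 difference in miRNA shares 0.367 and 0.359, against 0.525 for the closest non-HCC pair). They still differed beyond sampling noise and are kept as separate mice, since the labels give them as separate samples. That difference does not show that they came from separate animals, and if they did not, the HCC group holds 6 animals. Results that change when they are summed are given both ways. MiRNAs known to be rich in liver, such as miR-122-5p, took 3.82% to 50.97% of the UMIs with HCC, against 0.650% to 0.898% without it.

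Most members were fitted higher in HCC mice, but none passed the threshold. With edgeR's quasi-likelihood test and Benjamini-Hochberg adjustment, 0 of the 8 members had an adjusted p under 0.05, where 7.51% of the 1452 miRNAs tested were called higher in HCC mice. On the TMM scale 0 of the 8 members and 7.37% of all miRNAs were called higher. On the spike-in scale all 8 fold changes were above 0, from 0.73 to 2.12 in log2, with a median of 1.60 against 0.78 for all miRNAs tested. Differences in mean log2 level between the groups were smaller for each member, from 0.12 (miR-125b-5p) to 1.44 (miR-99b-5p). Their median over all miRNAs tested was 0.48. At an unadjusted edgeR p under 0.05 there were 6 of the 8 members, against 19.5% of all miRNAs. The members come from 6 hairpins and several vary together over the mice, so they are not 8 independent observations. On the TMM scale 7 of the 8 fold changes were above 0, with a median of 0.88 against 0.17, and 5 of the 8 members had an unadjusted p under 0.05, against 22.04%. On the spike-in scale DESeq2 called 6 of the 8 members higher, and 20.4% of the 887 miRNAs to which it gave an adjusted p. Limma called 0 of the 8 members and 3.03% of all miRNAs higher. In 0 of the 8 members did the groups lie fully apart on the spike-in scale, where this held for 1.52% of the miRNAs tested, nor on the TMM scale, where it held for 3.72%.

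The single members are described next by cluster, and each is plotted by mouse in counts per 1000000 miRNA UMIs of the library (CPM). This scale includes the liver miRNAs in its total.

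**Figure D1:**
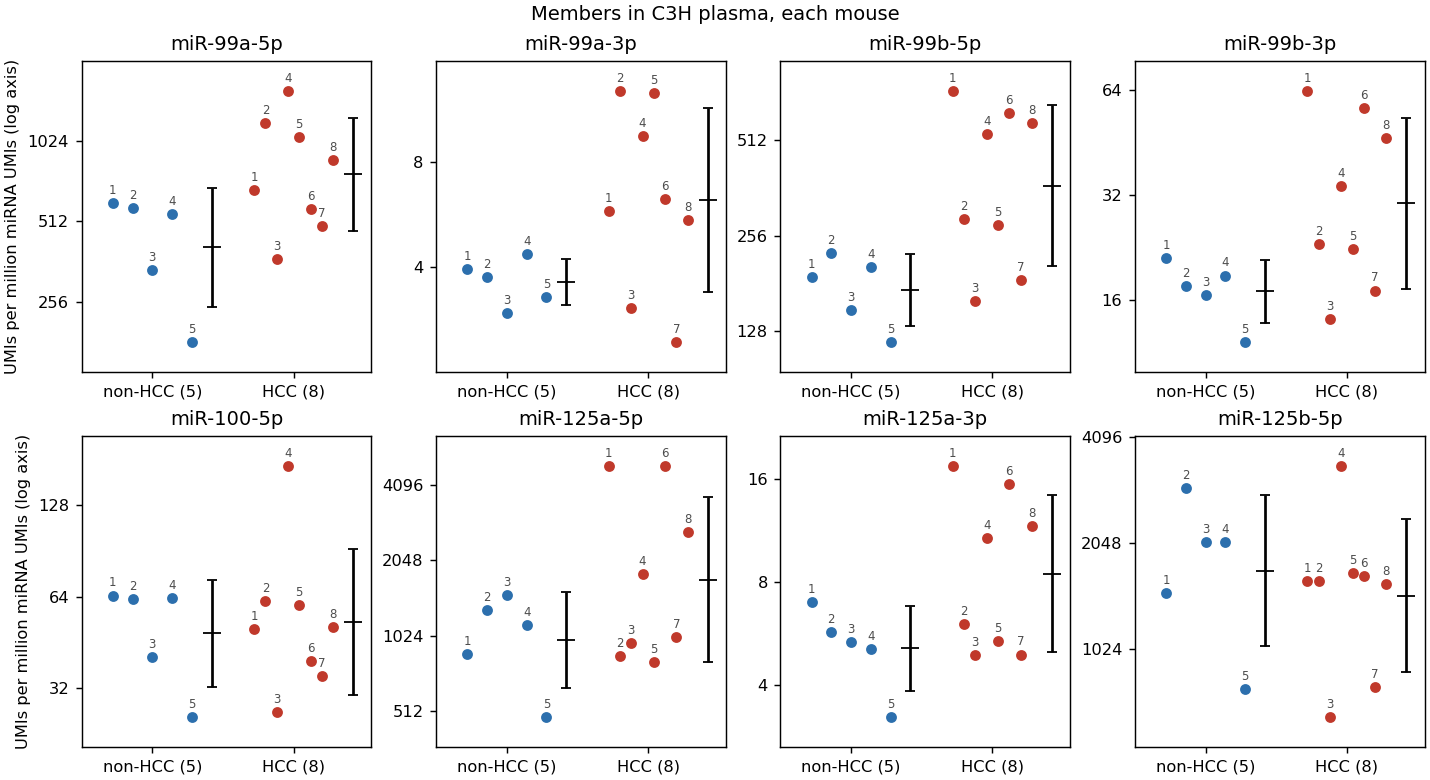
CPM (UMIs scaled to a library total of 1000000, log axis) of the 8 members in 5 non-HCC (blue) and 8 HCC (red) mice, with the replicate number of each mouse above its point. Black marks are the geometric mean with 1 SD of the log2 values. HCC 1 and HCC 6 are highest in miR-125a-5p, HCC 4 is highest in miR-99a-5p, miR-100-5p and miR-125b-5p, and the groups overlap in every panel.

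The cluster of miR-99b and miR-125a is the tightest of the 3. In CPM both arms of miR-99b exceeded all non-HCC mice in 6 of the 8 HCC mice, and both arms of miR-125a in 4 of the 8. MiR-99b-5p was counted at 189, 225, 149.8, 204 and 119 CPM in the 5 non-HCC mice. In the 8 HCC mice its lowest value was 159 CPM (HCC 3), its median 411 and its highest 727 (HCC 1). HCC 3 and HCC 7 lay among the non-HCC mice and the other 6 HCC mice above all of them. On the spike-in scale its log2 level averaged 12.22 ± 1.48 (SD, n = 8) with HCC, against 10.78 ± 0.44 (SD, n = 5) without it. Its fitted log2 fold change was 1.87 ± 0.66 (SE; edgeR adjusted p = 0.0919). On the TMM scale it was 1.10 ± 0.34 (SE; edgeR adjusted p = 0.0540). MiR-99b-5p was thus near the threshold on either scale, and over all 39 alternatives its edgeR, limma and DESeq2 adjusted p ranged from 0.00541 to 0.360, with 13 of the 39 under 0.05. Leaving out HCC 3, or leaving out HCC 7, was enough for it to be called on the spike-in scale, where edgeR called 11.0% and 10.2% of all miRNAs higher without these mice. An exact two-sided permutation test over all divisions of the mice gave an unadjusted p = 0.0629 for the spike-in levels and p = 0.0171 for the TMM levels. For the TMM levels of the other members this unadjusted p ran from 0.0443 (miR-99b-3p) to 0.956 (miR-100-5p).

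MiR-99b-3p, the opposite arm of the same hairpin, resembled it. It was counted at 21.1, 17.5, 16.5, 18.8 and 12.1 CPM in non-HCC mice. In HCC mice it ranged from 14.1 (HCC 3) to 63.7 (HCC 1) CPM with a median of 28.6. As for the guide arm, 6 of the 8 HCC mice exceeded all non-HCC mice, with a log2 fold change of 1.63 ± 0.65 (SE; edgeR adjusted p = 0.150). Over the 13 mice the TMM levels of both arms had a Pearson r of 0.96, given as a description.

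MiR-125a-5p, the guide arm with the miR-125 seed, was counted at 867, 1294, 1492, 1136 and 487 CPM in non-HCC mice. In HCC mice it ran from 804 (HCC 5) through a median of 1409 to 4869.8 (HCC 6) CPM. HCC 1, at 4862 CPM, stood beside HCC 6, and HCC 8 and HCC 4 followed at 2665 and 1801, while HCC 2, HCC 3, HCC 5 and HCC 7 lay within the non-HCC range. The fitted log2 fold change was 1.57 ± 0.65 (SE; edgeR adjusted p = 0.165) on the spike-in scale and 0.89 ± 0.46 (SE; edgeR adjusted p = 0.275) on the TMM scale. MiR-125a-3p, its opposite arm, was counted at 6.97, 5.70, 5.35, 5.10 and 3.22 CPM in non-HCC mice. It ran from 4.88 (HCC 3) through a median of 8.39 to 17.4 (HCC 1) CPM in HCC mice, with a log2 fold change of 1.47 ± 0.62 (SE; edgeR adjusted p = 0.182). HCC 1 and HCC 6 were again the highest 2 mice, and they were also the mice with the highest share of liver miRNAs, at 49.4% and 50.97%. HCC 3 and HCC 7 had the lowest liver shares among HCC mice, at 3.82% and 3.97%. HCC 2 and HCC 5 had liver shares of 35.8% and 34.99% and were the lowest HCC mice in miR-125a-5p in CPM, whose total holds the liver miRNAs. On the other scales the order changed. HCC 3 and HCC 7 were lowest in log2 TMM level (13.50 and 13.56, against 13.70 in HCC 2 and 13.59 in HCC 5) and in log2 spike-in level (12.42 and 12.58, against 15.02 and 14.98). The part of liver miRNAs in these differences was not tested.

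In the cluster of miR-99a and miR-125b-2, miR-99a-5p had the higher fitted change of the guide arms. It was counted at 597, 576, 337, 545 and 181 CPM in non-HCC mice. HCC mice ran from 369 (HCC 3) through a median of 772 to 1574 (HCC 4) CPM. HCC 3, HCC 6 and HCC 7 overlapped the non-HCC mice and the other 5 HCC mice lay above them. Its log2 fold change was 2.02 ± 0.76 (SE; edgeR adjusted p = 0.118) on the spike-in scale and 0.90 ± 0.40 (SE; edgeR adjusted p = 0.197) on the TMM scale. The opposite arm, miR-99a-3p, was scarce, with 3.94, 3.75, 2.96, 4.36 and 3.29 CPM in non-HCC mice. HCC mice ran from 2.45 (HCC 7) through a median of 6.02 to 12.7 (HCC 2) CPM, with a log2 fold change of 2.12 ± 0.84 (SE; edgeR adjusted p = 0.142). HCC 2 and HCC 5 were the highest, and HCC 3 and HCC 7 lay among or below the non-HCC mice. HCC 7 held 29 UMIs of miR-99a-3p, the lowest count of any member, for which the exact 95% Poisson interval is 19.4 to 41.6 UMIs and covers counting error only.

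MiR-125b-2-3p, which comes from the other end of this cluster, was counted at 285, 371, 246, 416 and 173 UMIs in non-HCC mice. With HCC it had 265 to 1119 UMIs with a median of 563.5. Its log2 fold change was 2.08 ± 0.72 (SE; edgeR adjusted p = 0.0835) on the spike-in scale and 1.06 ± 0.34 (SE; edgeR adjusted p = 0.0590) on the TMM scale, and its adjusted p over 39 alternatives ranged from 0.00745 to 0.388. The fitted changes of miR-99a-5p and miR-125b-2-3p, whose hairpins lie at opposite ends of the cluster, differed by less than the standard error of either.

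The cluster of miR-100 and miR-125b-1 showed smaller fitted changes. MiR-100-5p was counted at 64.5, 63.0, 40.5, 63.3 and 25.7 CPM in non-HCC mice. With HCC the values ran from 26.7 (HCC 3) through a median of 50.3 to 172 (HCC 4) CPM. Only HCC 4 exceeded all non-HCC mice on this scale, and the next HCC mouse, HCC 2, had 61.8. The log2 fold change of miR-100-5p was 1.20 ± 0.72 (SE; edgeR adjusted p = 0.404) on the spike-in scale and 0.16 ± 0.39 (SE; edgeR adjusted p = 0.953) on the TMM scale. Without HCC 4 the TMM value was -0.06. MiR-125b-1-3p, from the far end of the same cluster, was counted at 90, 134, 63, 143 and 30 UMIs in non-HCC mice and at 44 to 186 UMIs, with a median of 62, in HCC mice, again with HCC 4 highest. Its log2 fold change was 0.67 ± 0.65 (SE; edgeR adjusted p = 0.680) on the spike-in scale and -0.26 ± 0.36 (SE; edgeR adjusted p = 0.857) on the TMM scale. HCC 4 also had the highest share of miRNAs known from endothelium and stroma, 2.88% against at most 0.852% in the other HCC mice, and of muscle miRNAs, 1.47% against at most 0.258%. The part of those miRNAs in its values was not tested.

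MiR-125b-5p, which both of these clusters encode, was counted at 1478, 2937, 2056, 2066 and 786 CPM in non-HCC mice. In HCC mice it ran from 654 (HCC 3) through a median of 1599.5 to 3388.0 (HCC 4) CPM, and the groups overlapped throughout. It had the smallest fitted change of the members, 0.73 ± 0.69 in log2 (SE; edgeR adjusted p = 0.669). On the TMM scale its sign turned, to -0.32 ± 0.37 (SE; edgeR adjusted p = 0.778), so no direction can be given for it. It was called in 0 of the 39 alternatives, like miR-100-5p.

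**Figure D2:**
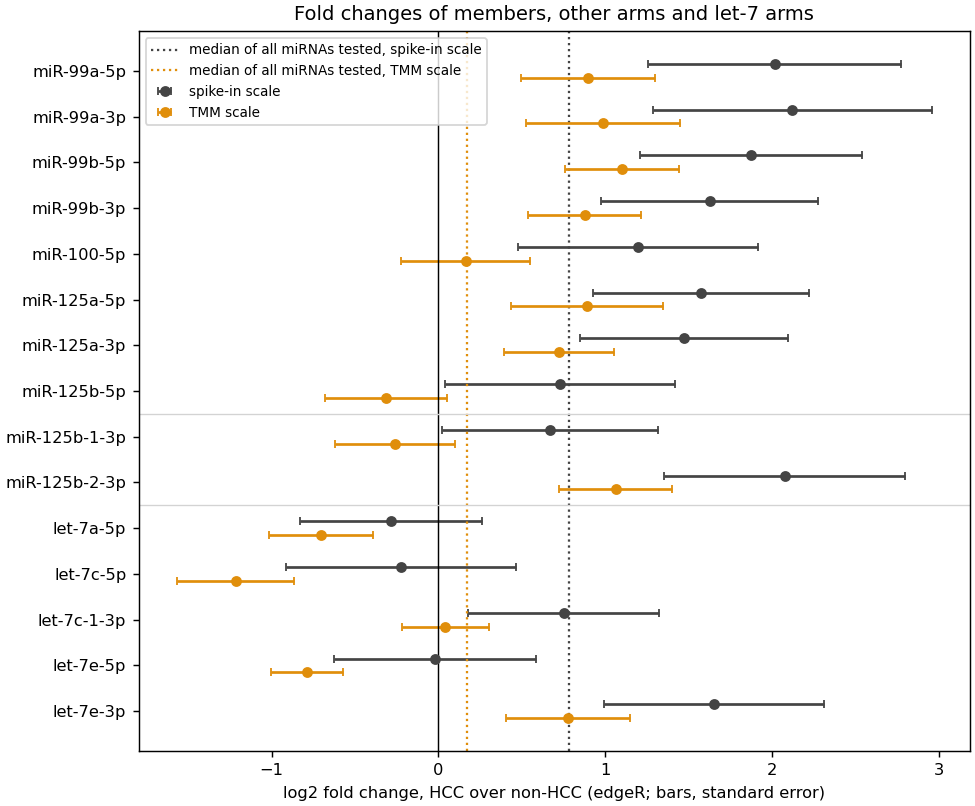
Log2 fold change of HCC over non-HCC mice in edgeR with its standard error, on the spike-in scale (grey) and the TMM scale (orange), for the 8 members (top), the opposite arms of both miR-125b genes (middle) and let-7 arms of the same clusters (bottom). Dotted lines mark the median of all miRNAs tested on each scale, 0.78 and 0.17. MiR-99a, miR-99b, miR-125a and miR-125b-2-3p lie above these medians, and miR-100-5p and miR-125b-5p lie near or below them on the TMM scale.

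Ratios between members were then compared inside each mouse. A ratio of UMI counts from 1 library needs no library scale, so neither the spike-ins nor the library total enter it. Of 12 ratios tested, 2 differed between HCC and non-HCC mice, and both involve miR-99a-5p. The balance within the shared seed moved from miR-100-5p to miR-99a-5p, and miR-99a-5p gained on miR-125b-5p.

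The ratio of miR-100-5p to miR-99a-5p, the pair separated by U16A, was 0.108, 0.109, 0.120, 0.116 and 0.142 in the 5 non-HCC mice. In HCC mice it was lowest at 0.0519 (HCC 2), with a median of 0.0706 and a highest value of 0.109 (HCC 4). All HCC mice but HCC 4 lay below all non-HCC mice, and HCC 4 lay at their lower edge. The geometric mean ratio was 0.0688 with HCC and 0.119 without it, a log2 difference of -0.79 ± 0.14 (SE; exact two-sided permutation p = 0.00155, Benjamini-Hochberg adjusted over 12 ratios p = 0.00932). The smallest p that these 13 mice allow is 0.000777. The ratio was 0.0726 in HCC 3 and 0.0719 in HCC 7, the HCC mice with the lowest liver shares. It was 0.0745 in HCC 1 and 0.0693 in HCC 6, those with the highest. Between them, HCC 2, HCC 5, HCC 8 and HCC 4 had ratios of 0.0519, 0.0566, 0.0583 and 0.109. Their liver shares were 35.8%, 34.99%, 22.1% and 16.8%. The part of liver miRNAs in this ratio was not tested.

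The ratio of miR-99a-5p to miR-125b-5p was 0.404, 0.196, 0.164, 0.264 and 0.231 in non-HCC mice. In HCC mice it ran from 0.345 (HCC 6) through a median of 0.561 to 0.745 (HCC 2). Only HCC 6 overlapped the range of the non-HCC mice, of which non-HCC 1 was the highest. The geometric means were 0.529 and 0.240, which is 2.21-fold higher in HCC mice, with a log2 difference of 1.14 ± 0.25 (SE; exact two-sided permutation p = 0.00155, adjusted p = 0.00932). Without any single mouse both ratios kept an adjusted p under 0.05. Both also kept it with the close pairs of HCC libraries summed. By contrast, the ratio of miR-100-5p to miR-125b-5p had geometric means of 0.0364 and 0.0285 in HCC and non-HCC mice (exact permutation p = 0.139, adjusted p = 0.223). Since miR-125b-5p also has a gene on chromosome 16, this ratio does not stay within the chromosome 9 cluster.

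The opposite arms separate the 2 genes of miR-125b. Their ratio was added after its values were seen and is given without a test. MiR-125b-2-3p over miR-125b-1-3p was 3.14, 2.76, 3.86, 2.90 and 5.61 in non-HCC mice. With HCC it ran from 5.91 (HCC 3) through a median of 7.76 to 12.4 (HCC 5). The groups did not overlap, although non-HCC 5 was close to the lowest HCC mice. How often ratios of other miRNAs separate these mice was not counted, so this separation has no background. The geometric means were 7.92 and 3.52, a ratio of 2.25. Of the arms from chromosome 16 alone, miR-99a-5p and miR-125b-2-3p stood higher in HCC mice relative to miR-100-5p and miR-125b-1-3p from chromosome 9. Only the ratio with miR-99a-5p was tested. Let-7c-1-3p, which also comes from chromosome 16 alone, had a log2 fold change of 0.75 ± 0.57 (SE) on the spike-in scale. On the TMM scale let-7c-1-3p had 0.042 ± 0.26 (SE; edgeR adjusted p = 0.985). MiR-99a-5p and miR-125b-2-3p were not called on that scale either (edgeR adjusted p = 0.197 and p = 0.0590). Whether the cluster rose as a whole was not tested.

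**Figure D3:**
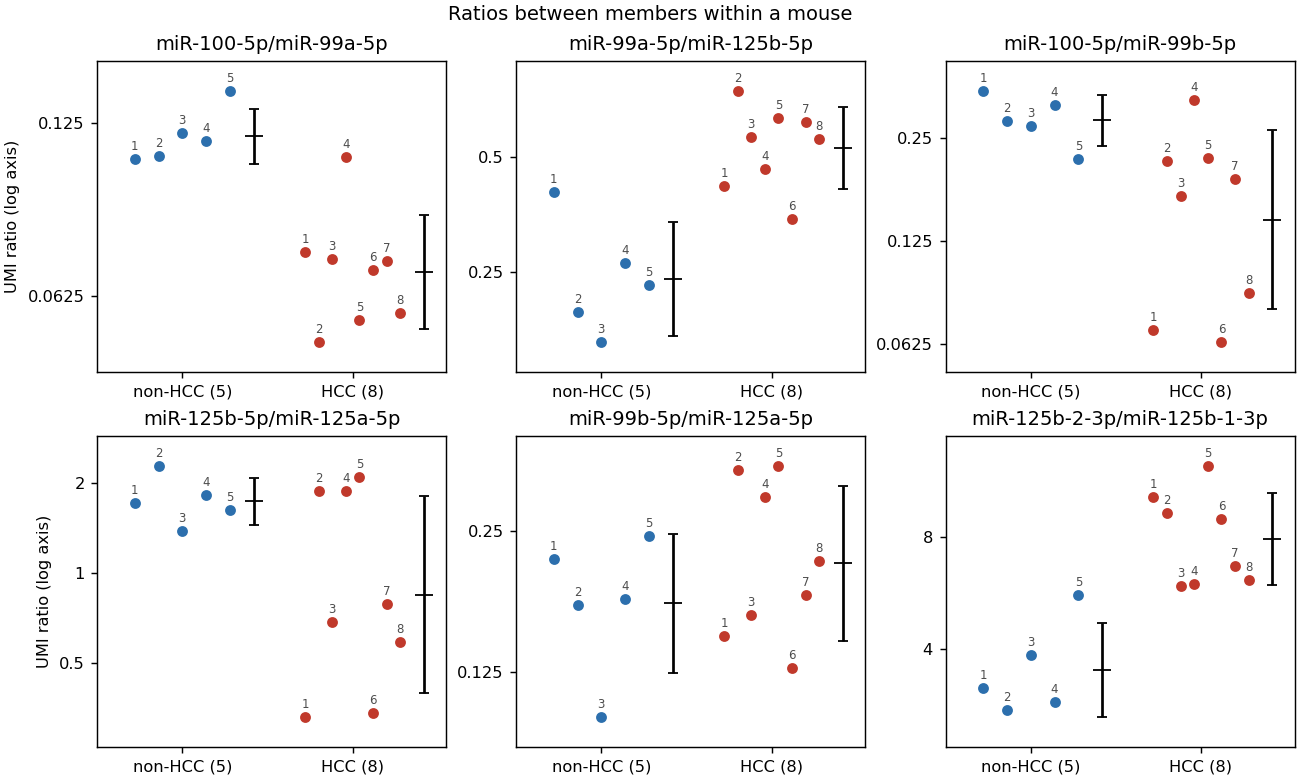
UMI ratios within a mouse (log axis) for 6 pairs, in 5 non-HCC (blue) and 8 HCC (red) mice, with replicate numbers above the points and the geometric mean with 1 SD of the log2 values in black. MiR-100-5p/miR-99a-5p is lower and miR-99a-5p/miR-125b-5p higher in HCC mice with 1 HCC mouse overlapping in each, and miR-125b-2-3p/miR-125b-1-3p does not overlap.

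The remaining ratios did not pass the adjusted threshold. MiR-100-5p over miR-99b-5p was 0.342, 0.280, 0.271, 0.311 and 0.217 in non-HCC mice, and it ran from 0.0634 (HCC 6) through a median of 0.179 to 0.322 (HCC 4) in HCC mice (exact permutation p = 0.0373, adjusted p = 0.124). MiR-125b-5p over miR-125a-5p, the balance within the miR-125 seed, was 1.71, 2.27, 1.38, 1.82 and 1.62 in non-HCC mice. With HCC it fell into 2 sets, 1.87, 1.88 and 2.09 in HCC 2, HCC 4 and HCC 5 and 0.329 to 0.782 in the other 5 (exact permutation p = 0.0676, adjusted p = 0.151). MiR-99a-5p over miR-99b-5p had geometric means of 2.09 and 2.36 in HCC and non-HCC mice (exact permutation p = 0.668). MiR-99b-5p over miR-125a-5p, within the chromosome 17 cluster, had geometric means of 0.214 and 0.176 (exact permutation p = 0.368). The sum of the guide arms miR-125a-5p and miR-125b-5p over that of miR-99a-5p, miR-99b-5p and miR-100-5p had geometric means of 2.74 and 4.26 (exact permutation p = 0.0754, adjusted p = 0.151). The sum of miR-99a-5p, miR-100-5p and miR-125b-5p over that of the chromosome 17 guide arms had geometric means of 1.09 and 1.87 (exact permutation p = 0.148, adjusted p = 0.223).

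The ratio of the 2 arms of a hairpin in plasma was compared for 3 hairpins. Which strand is kept in cells was not measured. MiR-99b-5p exceeded miR-99b-3p by 8.94 to 12.8 times in non-HCC mice and by 10.9 to 15.6 times in HCC mice (exact permutation p = 0.0412, adjusted p = 0.124). MiR-99a-5p exceeded miR-99a-3p 110 times in non-HCC and 121 times in HCC mice by geometric mean (exact permutation p = 0.646). For miR-125a the arms stood at 189.6 and 201 (exact permutation p = 0.732). The guide arm therefore dominated in all 3 hairpins and in both groups.

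The members together took 0.162% to 0.512% of all miRNA UMIs in non-HCC mice, and 0.219% to 0.7996% of them with HCC. The difference in means, 0.523% ± 0.238 (SD, n = 8) against 0.362% ± 0.131 (SD, n = 5), was within the spread between mice (exact permutation p = 0.197). The clusters contributed unequally. The members of the chromosome 17 cluster took 0.269% ± 0.196 (SD, n = 8) with HCC and 0.125% ± 0.0416 (SD, n = 5) without it (exact permutation p = 0.147). Those that only the chromosome 16 cluster encodes took 0.0857% ± 0.0410 (SD, n = 8) and 0.0451% ± 0.0182 (SD, n = 5) (exact permutation p = 0.0622), and miR-100-5p took 0.00620% ± 0.00461 (SD, n = 8) and 0.00514% ± 0.00175 (SD, n = 5) (exact permutation p = 0.826). MiR-125b-5p took 0.162% ± 0.0823 (SD, n = 8) and 0.186% ± 0.0797 (SD, n = 5) (exact permutation p = 0.627). After adjustment over these 5 shares the lowest p was 0.311.

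**Figure D4:**
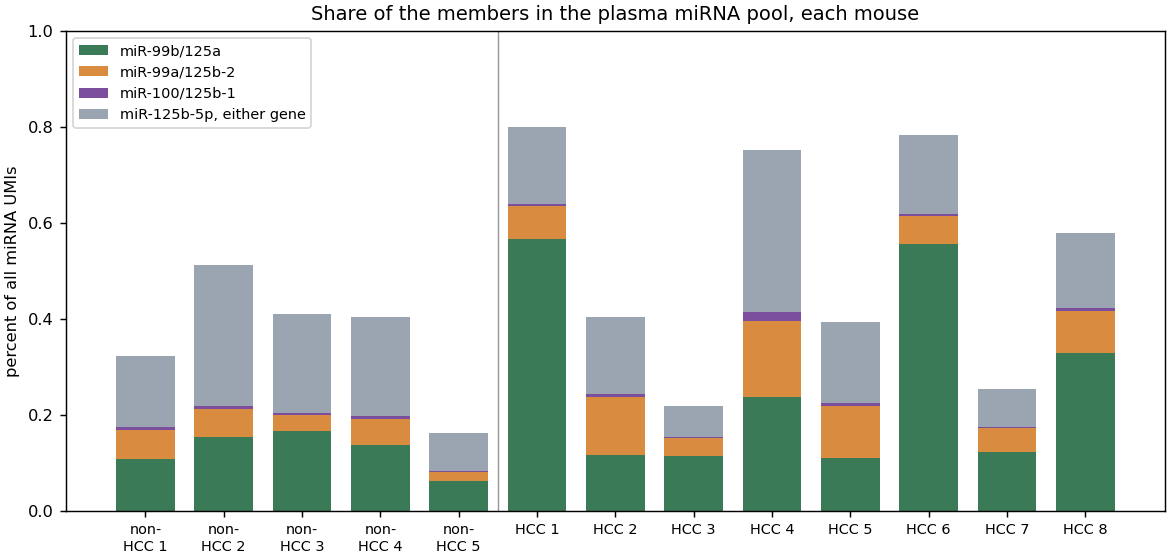
Percent of all miRNA UMIs taken by the members in each mouse, stacked by cluster, with miR-125b-5p apart because it has 2 genes. HCC 1 and HCC 6 are high through the chromosome 17 cluster (0.567% and 0.556%), and HCC 4 through miR-125b-5p (0.339%) and miRNAs of chromosome 16 (0.158%).

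Co-variation was tested over the 8 HCC mice for the 10 pairs of the 5 guide arms. By Pearson r, 8 of the 10 pairs had an adjusted exact permutation p under 0.05 on the spike-in scale. These levels, however, share the spike-in count of each mouse. By Pearson r on the TMM scale 3 of the 10 pairs remained, all among miR-99a-5p, miR-100-5p and miR-125b-5p. By Spearman rho these 3 pairs passed there too, and so did miR-99b-5p and miR-125a-5p (exact permutation adjusted p = 0.000496). MiR-99a-5p and miR-100-5p, from different chromosomes, had a Pearson r of 0.91 and a Spearman rho of 0.93 (exact permutation p = 0.00273 and p = 0.00223, adjusted p = 0.0136 and p = 0.0112). Without the 2 mice farthest from the median r was 0.96 (exact permutation adjusted p = 0.00694). MiR-100-5p and miR-125b-5p had r = 0.91 and rho = 0.90 (exact permutation p = 0.00191 and p = 0.00456, adjusted p = 0.0136 and p = 0.0152), and without the 2 farthest mice r was 0.87 (exact permutation adjusted p = 0.0521). MiR-99a-5p and miR-125b-5p had r = 0.89 and rho = 0.83 (exact permutation p = 0.00446 and p = 0.0154, adjusted p = 0.0149 and p = 0.0384), and without the 2 farthest mice r was 0.90 (exact permutation adjusted p = 0.0521). With both close pairs of libraries averaged, which leaves 6 values, the 3 coefficients were 0.91, 0.90 and 0.87 and the adjusted exact permutation p was 0.0509, 0.0509 and 0.0729.

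On the TMM scale miR-99b-5p and miR-125a-5p, 692 bases apart at most, had the same order in all 8 HCC mice (rho = 1.00, exact permutation p = 4.96e-05, adjusted p = 0.000496). Their Pearson r was 0.80 (exact permutation p = 0.0258, adjusted p = 0.0644), and 0.90 without the 2 farthest mice. With both close pairs of libraries averaged, which leaves 6 values, r was 0.82 (exact permutation adjusted p = 0.0509). Pairs across this cluster and the other 2 had lower coefficients. The highest Pearson r among them was 0.655, for miR-99b-5p and miR-125b-5p (rho = 0.33, exact permutation p = 0.0730 and p = 0.428). MiR-99b-5p had r = 0.36 with miR-99a-5p and r = 0.35 with miR-100-5p. MiR-125a-5p had r = 0.11 with miR-125b-5p. MiR-99a-5p and miR-125a-5p had r = -0.27 and rho = 0.14 (exact permutation p = 0.498 and p = 0.752), and miR-100-5p and miR-125a-5p had r = -0.21 and rho = 0.21 (exact permutation p = 0.601 and p = 0.619). The difference between coefficients was not tested.

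**Figure D5:**
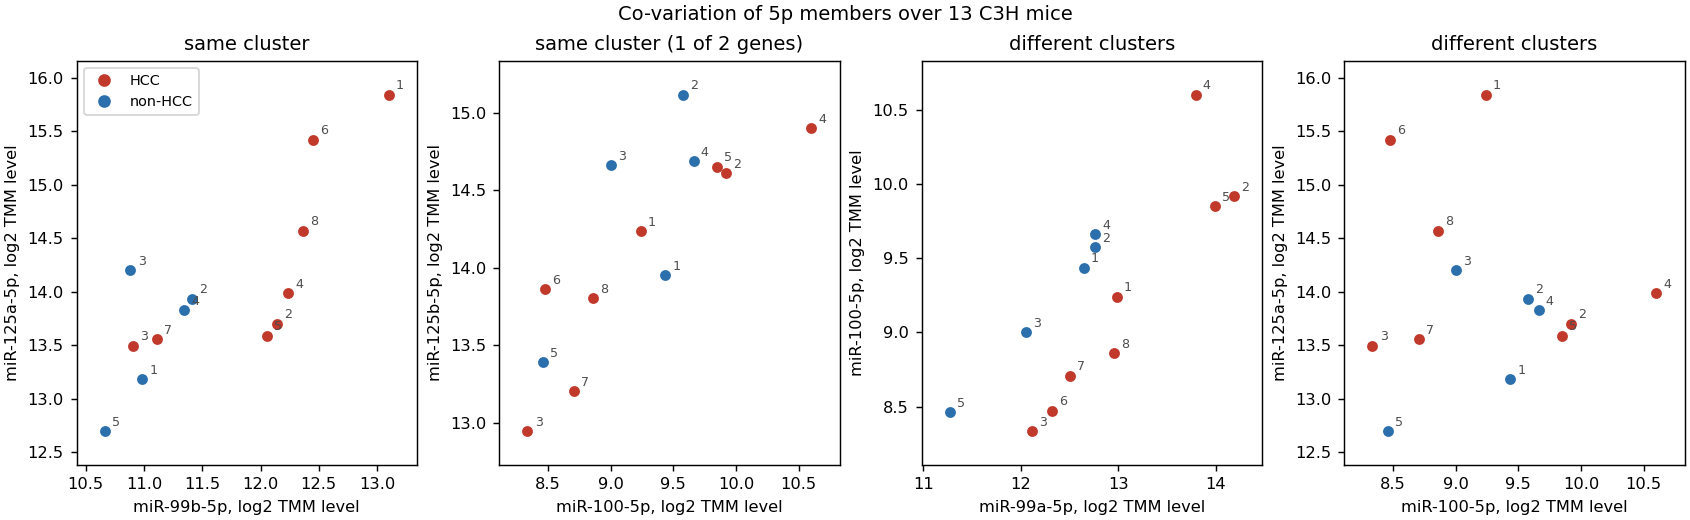
Log2 TMM levels of 4 pairs of guide arms in the 8 HCC (red) and 5 non-HCC (blue) mice, numbered by replicate. MiR-99b-5p and miR-125a-5p rank alike in HCC mice, miR-99a-5p and miR-100-5p rise together with HCC mice lying to the right of non-HCC mice at like miR-100-5p, and miR-100-5p and miR-125a-5p show no common order.

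The miRNAs whose pattern over all 13 mice was most like each guide arm were found by Pearson r of log2 TMM levels among 691 miRNAs with at least 10 UMIs in every mouse. For miR-99a-5p the closest was miR-125b-2-3p of its own cluster (r = 0.91), followed by miR-3062-5p and miR-184-3p (r = 0.87 and 0.85). For miR-100-5p they were miR-199a-5p (r = 0.86), miR-125b-1-3p of its own cluster (r = 0.81) and miR-206-3p (r = 0.80). For miR-125b-5p they were miR-30c-2-3p, miR-199a-5p and miR-34c-3p (r = 0.92, 0.90 and 0.86). For miR-99b-5p they were miR-182-5p, miR-183-5p and miR-671-3p (r = 0.94, 0.94 and 0.93), and for miR-125a-5p miR-483-3p, miR-1247-5p and miR-1249-3p (r = 0.90, 0.89 and 0.88). These coefficients are descriptions over mice of both groups that share library and depth.

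The let-7 hairpins sit between the members in each cluster, and let-7 miRNAs restrain growth genes such as Ras and Myc. Of 6 let-7 arms tested by edgeR, 0 were called on the spike-in scale, where 1 had an unadjusted p under 0.05, with a median log2 fold change of 0.22, and 0 were called higher and 2 lower on the TMM scale, where 2.20% of all miRNAs were called lower. Let-7e-3p, which lies between miR-99b and miR-125a, had a log2 fold change of 1.65 ± 0.66 (SE; edgeR adjusted p = 0.150), close to that of its neighbours. Let-7e-5p, from the same hairpin, had -0.02 ± 0.61 (SE; edgeR adjusted p = 0.995), and on the TMM scale its log2 fold change was -0.79 ± 0.21 (SE; edgeR adjusted p = 0.0295, range over 39 alternatives 0.000521 to 1.00). Let-7c-5p was also called lower on the TMM scale, with -1.22 ± 0.35 (SE; edgeR adjusted p = 0.0383, range 0.0100 to 1.00), against -0.22 ± 0.69 (SE; edgeR adjusted p = 0.946) on the spike-in scale. Let-7c-1-3p, which marks the chromosome 16 hairpin alone, had 0.75 ± 0.57 (SE; edgeR adjusted p = 0.576). Let-7a-5p had -0.29 ± 0.55 (SE; edgeR adjusted p = 0.897), and let-7a-2-3p, at 0 to 30 UMIs per mouse, was too scarce to compare. The guide arms let-7a-5p and let-7c-5p have further genes outside these clusters, so they do not report on the clusters alone.

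Other miRNAs with a member's seed were sought in RefSeq by bases 2 to 8, for the 1563 of 1826 miRNAs with a sequence there. All 3 found carry the miR-125 seed, and 0 carry the miR-99 and miR-100 seed. MiR-351-5p, the X-linked relative of miR-125, had 830 to 1021 UMIs in non-HCC and 590 to 1392 UMIs in HCC mice, with a log2 fold change of 0.48 ± 0.55 (SE; edgeR adjusted p = 0.752). MiR-6367 and miR-6394 had at most 43 and 146 UMIs in any mouse. Of the wider miR-10 family, whose seed differs from that of miR-99 and miR-100, miR-10a-5p had a log2 fold change of 0.99 ± 0.61 (SE; edgeR adjusted p = 0.421) and miR-10b-5p one of -0.0013 ± 0.54 (SE; edgeR adjusted p = 0.999). None of these 5 relatives was called by edgeR on either scale, and 0 of 5 on the spike-in scale and 1 of 5 on the TMM scale had an unadjusted p under 0.05.

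Lists of miRNAs known from other sources were read beside the members. Of the 4 liver miRNAs all 4 were called higher in HCC mice on both scales. Of 6 red cell, 4 endothelial and stromal and 5 muscle miRNAs 0 were called on either scale, and of 4 platelet and leukocyte miRNAs 0 were called on the spike-in scale and 4 were called lower on the TMM scale. None of these 23 miRNAs was at 0 in any mouse. Red cell miRNAs took 36.5% to 38.9% of the UMIs in non-HCC mice and 6.69% to 39.5% in HCC mice, with HCC 1 and HCC 6 lowest at 7.70% and 6.69%. Platelet and leukocyte miRNAs took 2.09% to 4.35% in non-HCC and 0.995% to 1.66% in HCC mice. The part of these sources in the levels of the members was not tested, and fewer cells of a type, less RNA released per cell and a change in clearance cannot be told apart in plasma.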

How the data were processed

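Small RNA of plasma from 13 C3H mice was analysed. Per the paper's methods the authors aligned to GRCm38, took miRNA names from miRBase 20, then collapsed barcodes to UMI counts, which they scaled by the spike-ins UniSP2 and UniSP4 for their own analysis. The deposited table holds whole-number counts with unequal totals and is read here as unnormalized. No value from 1 to 9 occurs in the table, so an entry of 0 is read as under 10 UMIs. Columns were matched to mice by the mouse names of the labels. The table of F2 mice holds 53 columns that match no label and was not used. The members and lists, named by a rule on family, cluster, seed and likeness, were chosen with earlier results of these data known.

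From the deposited counts, edgeR 4.0.16 (R 4.3.3) compared HCC with non-HCC mice by the quasi-likelihood test over all 1452 miRNAs that reached 5 UMIs in 5 or more mice, with the mean of both spike-ins as library scale and Benjamini-Hochberg adjustment at 0.05. A standard error is the log2 fold change over the square root of F. A level adds 1 UMI to the count, divides by the relative spike-in mean or TMM factor and takes log2. Ratios, shares, levels and correlations were tested by exact two-sided permutation (numpy 2.4.6, scipy 1.17.1, pandas 2.3.3, Python 3.11.15). The edgeR step was tested on simulated counts of the 1452 miRNAs, where 46.25% of 160 miRNAs changed 8-fold were recovered, so many such changes went uncalled there. The changed miRNAs were drawn at random whatever their counts. Recovery for miRNAs as abundant as the members was not measured. Alternatives were TMM factors, total UMIs, each spike-in alone, limma 3.58.1, DESeq2 1.42.0, other filters, a replicate block and leaving out single mice. Summing close libraries, TMM without each mouse, the unblocked fit of the same mice and 1 ratio were added after the data were seen. Labels give 1 sample per mouse, and p-values measure the spread between these mice.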

Additional observations from a re-analysis of the deposited data

Results flagged for a closer look

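HCC 4 stood apart from the other 7 HCC mice in 3 values. It had the highest share of miRNA UMIs from miR-100-5p, 0.0172% against 0.00618% in the next mouse, a gap of 0.758 of the whole range. It had the highest share from miR-125b-5p, 0.339% against 0.168%, a gap of 0.624 of the range. Its log2 ratio of miR-99b-5p to miR-99b-3p was also the highest, 3.97 against 3.64, a gap of 0.620 of the range. For 8 samples Dixon's 95% critical value is 0.526. In independent groups chance gives such a gap in about 1 in 20, and 56 groups were examined. These groups share mice and members, and all 3 gaps are in HCC 4, so this rate cannot tell whether 3 gaps are many. HCC 4 also had the highest shares of endothelial and stromal and of muscle miRNAs (2.88% and 1.47%), and their part in these values was not tested.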

How the results depend on the processing

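The 2 ratios with miR-99a-5p were under an adjusted p of 0.05 under a pseudocount of 10 UMIs, with close HCC libraries summed and without any single mouse, where 2 to 3 of 12 ratios passed. The count of called members, 0, was less stable. Beside it stands the share of all miRNAs called higher, 7.51% at first. It was 1 with total UMIs (8.47%), 1 with UniSP4 alone (8.95%), 1 with close libraries summed and TMM factors (8.49%), 2 with DESeq2's own size factors (12.0%), 6 with DESeq2 on the spike-ins (20.4%), and 0 to 1 without single mice (3.13% to 11.0%), 1 without HCC 3 (11.0%) or HCC 7 (10.2%). Replicate numbers were no pairing in the labels. In same-numbered mice the deviations from the group mean had correlations of 0.029, -0.131, 0.046, -0.127 and 0.071, and 1 of 5 mice was nearest its own number. A replicate block on the 10 mice with shared numbers called 2 members (11.7% of all miRNAs), against 3 without it in the same mice (13.2%). The unadjusted permutation p of the levels was under 0.05 for 0 members, 2 on the TMM scale and 2 with close libraries summed. Without single mice it was under 0.05 for 0 to 4 members (4 without HCC 3 or HCC 7). The share of all miRNAs under this test is not given here, so these counts have no background. By edgeR, 19.5% of all miRNAs had an unadjusted p under 0.05 on the spike-in scale and 22.04% on the TMM scale. Pearson correlations with an adjusted exact permutation p under 0.05 numbered 8 of 10, but 3 on the TMM scale. They numbered 5 without the 2 farthest mice, 2 with both changes, and 5 with close pairs averaged.

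The sign of low values depended on the scale. With TMM factors, total UMIs, DESeq2's own factors and close libraries summed with TMM factors, the log2 fold change of miR-125b-5p was -0.32, -0.21, -0.26 and -0.23 and that of miR-125b-1-3p -0.26, -0.13, -0.20 and -0.16. MiR-351-5p had -0.089, -0.035 and -0.034 under the same settings other than total UMIs, and the level of miR-125b-5p had -0.34 with TMM factors. Under the replicate block let-7e-5p had 0.032 and miR-10b-5p 0.0095, and miR-10b-5p had 0.0061 with UniSP4 alone. Without single mice the log2 fold change ran from -0.50 to 0.092 for let-7a-5p, -0.69 to 0.028 for let-7c-5p, -0.26 to 0.28 for let-7e-5p, -0.16 to 0.28 for miR-10b-5p and, on the TMM scale, -0.062 to 0.39 for miR-100-5p. The level difference of miR-125b-5p ran from -0.14 to 0.46, the log2 ratio of miR-99a-5p to miR-99a-3p from -0.12 to 0.25 and of miR-125a-5p to miR-125a-3p from -0.073 to 0.22. The share difference ran from -0.00051 to 0.0016 percentage points for miR-100-5p, -0.052 to 0.0020 for miR-125b-5p and 0.111 to 0.204 for all members. The cause of these changes was not tested. The scarcest member had 29 UMIs in 1 mouse, and let-7a-2-3p was too scarce to compare.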

Other observations

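The make-up of the members' UMIs within each mouse was looked at after the values were seen, and is given without a test. MiR-125b-5p made up 45.8% to 57.3% of the members' UMIs in the 5 non-HCC mice, with a median of 50.1%, and 19.998% to 45.03% in the 8 HCC mice, with a median of 30.5%, so that the groups lay apart by less than 1 percentage point. How often such a share separates these mice was not counted. MiR-125a-5p made up 25.3% to 36.4% in non-HCC mice and 20.5% to 62.2% in HCC mice, a range that holds all non-HCC mice. MiR-99b-5p made up 3.65% to 7.35% in non-HCC mice and 7.05% to 9.94% in HCC mice. MiR-100-5p made up 0.988% to 2.00% in non-HCC mice and 0.503% to 2.29% in HCC mice.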
